A study of Mus musculus with 26 samples.

Results

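The heavy-chain J genes IGHJ1, IGHJ2, IGHJ3 and IGHJ4 were followed through the isotypes and tissues of a mouse B cell receptor repertoire series. The members were the 4 J genes named in the J assignment column of the deposited tables, which were all of the 4 J genes that the tables name. A clonotype was 1 junction sequence together with its V and J gene, counted once in a biological replicate. Over all replicates 1674869 clonotypes were counted, of which 308110 used IGHJ1, 541345 IGHJ2, 241546 IGHJ3 and 583868 IGHJ4.

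A heavy-chain variable region is assembled by joining a V, a D and a J segment, and the J segment supplies the end of the third complementarity-determining region (CDR3) and the whole of framework 4. The J segment is chosen at recombination and stays with the cell when it later expresses IgM and IgD side by side or switches to IgA or IgG. Somatic hypermutation in germinal centres adds base changes to the rearranged V and J sequence after that choice. In spleen and lymph node most B cells are naive IgM+ IgD+ cells, and IgA and IgG transcripts come mainly from switched memory and plasma cells.

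The 4 J sequences are shown because their lengths before framework 4 and their bases within it underlie the CDR3 and mutation values that follow. Each was read as the most frequent sequence end among the tissue sequences with no V mismatch, at a length set beforehand from RefSeq. These ends made up 17.2%, 23.8%, 27.6% and 13.7% of such sequences for IGHJ1 to IGHJ4. Capitals mark the tryptophan codon that closes the junction and the framework 4 bases after it.
IGHJ1: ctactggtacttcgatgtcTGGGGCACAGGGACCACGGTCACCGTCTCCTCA
IGHJ2: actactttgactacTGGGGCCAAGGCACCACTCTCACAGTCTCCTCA
IGHJ3: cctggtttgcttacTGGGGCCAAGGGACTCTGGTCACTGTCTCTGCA
IGHJ4: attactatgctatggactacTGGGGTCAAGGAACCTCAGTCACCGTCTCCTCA

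At the preset length IGHJ1 and IGHJ4 brought 22 and 23 bases into the junction, tryptophan codon included, and IGHJ2 and IGHJ3 brought 17 bases each. All 4 continued with 30 framework 4 bases. RefSeq lists the genes as J segments on chromosome 12 of GRCm38 (the build named mm10 in the submitters' processing notes), with Ighj1 at chr12:113429781-113429833, Ighj2 at chr12:113429468-113429515, Ighj3 at chr12:113429085-113429132 and Ighj4 at chr12:113428514-113428567. The length read was set to 1 base less than each listed segment.

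The groups were skin, spleen and lymph node of mice labelled WT in genotype and associated with *Staphylococcus epidermidis*, a skin commensal bacterium, with 4 biological replicates of each tissue and 2 technical libraries per replicate. A positive control of B cells labelled WT, with no treatment given in its labels, had 1 biological replicate with 2 technical libraries. The labels give neither strain nor age nor which lymph node was taken, and they do not say whether the 4 replicates of a tissue were separate mice, so the p-values measure the spread between these samples, which may be technical. Every sequence had an in-frame junction and a framework 4. Skin replicates held 275 to 350 clonotypes, spleen replicates 25645 to 438995, lymph node replicates 27520 to 117561 and the control 386982. IGHM, IGHD, IGHA and IGHG2 were compared. IGHM clonotypes per replicate numbered 145 to 235 in skin, 22556 to 91918 in lymph node and 15939 to 325857 in spleen. IGHA clonotypes numbered 50 to 97, 223 to 467 and 3427 to 33515 in the same order. IGHG2, which joins the subclasses of IgG2, had 0 to 7 clonotypes per skin replicate and was not tested there.

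Among IGHM clonotypes IGHJ3 was the least used J gene in all 12 tissue replicates. Counted by lineage (clonotypes of equal CDR3 length, V gene and J gene joined where their junction bases were at least 85% identical), this did not hold in spleen replicate 4, where IGHJ3 took 17.5% and IGHJ1 16.3%. IGHJ3 took 12.8%, 9.73%, 11.8% and 12.4% of IGHM clonotypes in spleen replicates 1 to 4 and 7.16%, 8.02%, 7.98% and 8.23% in lymph node replicates 1 to 4. Every spleen value lay above every lymph node value. The means were 11.7% ± 1.36 and 7.85% ± 0.469 (SD, n = 4). In bulk libraries, fewer cells of a kind and less RNA per cell cannot be told apart, and a share of clonotypes can move with either.

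IGHJ4 ran the other way in IGHM. It took 30.7%, 34.5%, 32.4% and 31.5% in spleen and 40.3%, 36.2%, 38.5% and 37.7% in lymph node, again without overlap. For both IGHJ3 and IGHJ4 the exact two-sided permutation test over the 70 splits of 4 against 4 gave p = 0.0286, the smallest it can give, and an adjusted p of 0.0571 over the 4 J genes, which missed the threshold of 0.05. IGHJ1 stood at 20.3% ± 0.267 in spleen and 19.8% ± 0.372 in lymph node, and IGHJ2 at 35.8% ± 0.290 and 34.2% ± 1.02 (SD, n = 4), with overlapping replicates for both genes.

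IGHD clonotypes, which mark B cells that still carry IgD, differed in J use between spleen and lymph node, and 3 of the 4 J genes passed the test. Over the 4 isotypes 3 of 16 J gene tests passed, which is 18.8%, and 5 of 16, 31.2%, did not overlap. All 3 calls were in IGHD. IGHJ1 took 25.8%, 22.5%, 22.9% and 22.9% of spleen IGHD clonotypes and 18.0%, 19.0%, 19.0% and 18.8% of those of lymph node. IGHJ3 took 18.8%, 10.4%, 14.5% and 15.4% in spleen and 7.12%, 8.01%, 7.65% and 8.12% in lymph node. IGHJ4 took 29.7%, 43.6%, 37.1% and 36.0% in spleen and 50.0%, 45.0%, 47.4% and 46.5% in lymph node. The 2 tissues did not overlap for any of the 3 genes.

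Spleen was higher by 4.80 percentage points for IGHJ1 and 7.08 points for IGHJ3, while the IGHJ4 difference, spleen minus lymph node, was -10.7 points (exact permutation p = 0.0286, adjusted p = 0.0381 for each). IGHJ2 stood at 25.1% ± 1.09 and 26.3% ± 1.29 (SD, n = 4; exact permutation, adjusted p = 0.229). Leaving out any 1 of the 4 lymph node replicates took the exact permutation test's adjusted p of the 3 genes to between 0.0571 and 0.0762, with the IGHJ3 difference between 6.87 and 7.21 points, while the 3 calls held without any 1 spleen replicate. Without clonotypes seen in a single copy none of the IGHD genes passed (exact permutation, adjusted p = 0.0571 for IGHJ1 and IGHJ4 and 0.190 for IGHJ3), and IGHJ2, IGHJ3 and IGHJ4 of IGHM passed instead (0.0381 each), with IGHM differences of 4.34 points for IGHJ3 and -7.77 points for IGHJ4. By lineage the IGHD calls held, with IGHJ1 means of 20.8% in spleen against 18.4%. Adjustment over all 16 tests in place of the 4 of an isotype gave an adjusted p of 0.0914 and 0 calls. In both isotypes spleen replicate 2, which had the most clonotypes, had the lowest IGHJ3 share of spleen, and spleen replicate 1, which had the fewest, had the highest. By lineage replicates 1 to 4 had 14.3%, 15.96%, 16.5% and 17.5% IGHJ3 in IGHM, where replicate 1 became the lowest. In IGHD they had 19.6%, 16.2%, 19.2% and 20.3%, with replicate 2 still the lowest. Joining went further in the larger library: 15939 IGHM clonotypes of replicate 1 gave 11252 lineages, and 325857 of replicate 2 gave 107216. The lineage shares therefore cannot separate library size from J use. The part of library size in the tissue difference was not tested.

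**Figure D1:**
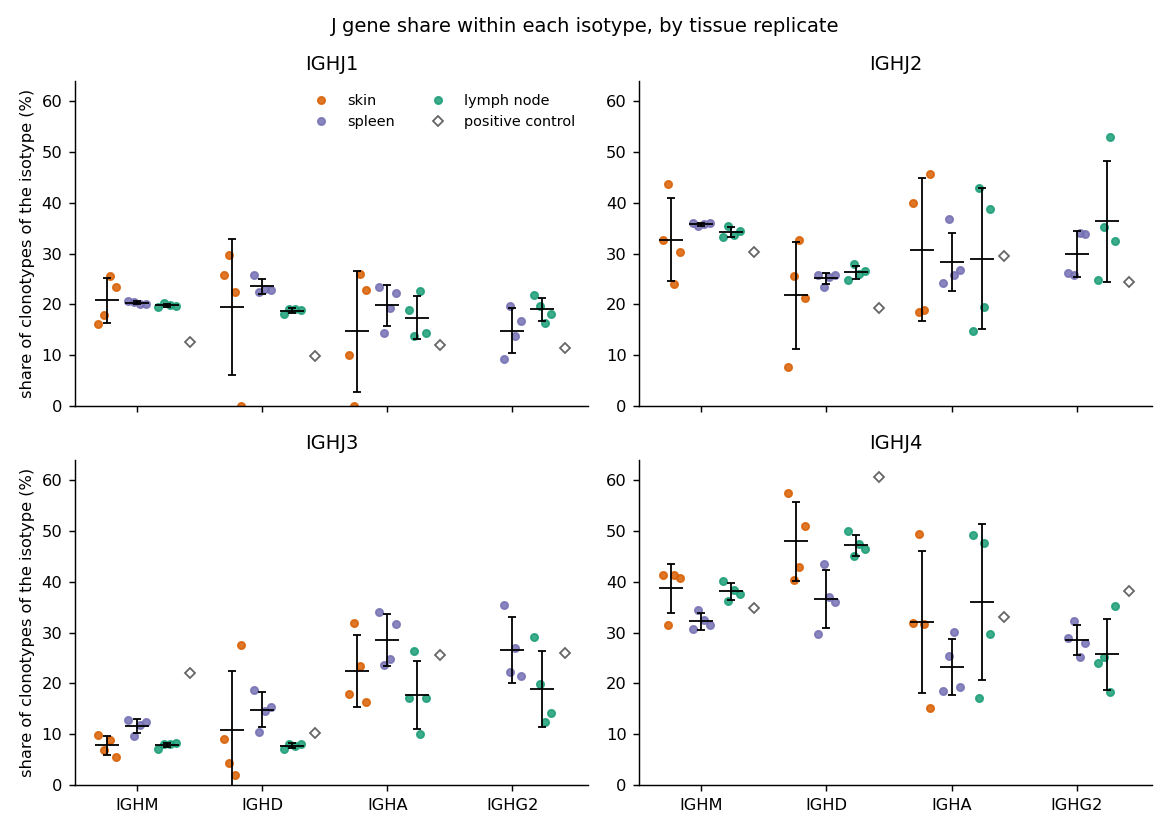
Share of the clonotypes of IGHM, IGHD, IGHA and IGHG2 (percent, y axis) that used each J gene, with 1 point per biological replicate, black lines for the mean and its SD over 4 replicates, and an open diamond for the positive control. IGHJ3 lies lowest in IGHM, where lymph node replicates run from 7.16% to 8.23%, and reaches 23.5% to 34.1% in spleen IGHA.

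IGHA clonotypes used IGHJ3 far more than IGHM clonotypes of the same replicate. In spleen IGHA, IGHJ3 took 34.1%, 23.5%, 24.8% and 31.7% of clonotypes, in lymph node 17.0%, 26.3%, 10.1% and 17.2%, and in skin 18.0%, 32.0%, 23.5% and 16.3%. The difference from IGHM in the same replicate was 16.8 ± 4.05 percentage points in spleen, 9.82 ± 6.64 in lymph node and 14.7 ± 7.41 in skin (SD, n = 4). IGHA was the higher isotype in all 12 tissue replicates. With 4 pairs per tissue the exact sign-flip test cannot go below p = 0.125, which is the value it gave in each of the 3 tissues, so these stand as values and directions without a call.

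The IGHA excess of IGHJ3 was smaller when related clonotypes were joined into lineages, and then 10 of 12 replicates showed it. Counted by lineage, it was 11.8 ± 4.21 points in spleen with 4 of 4 replicates higher. In lymph node it was 7.39 ± 6.07 points and in skin 12.5 ± 9.37 points (SD, n = 4), with 3 of 4 replicates higher in each. The mean IGHJ3 share of spleen IGHA was 28.5% by clonotype and 27.9% by lineage, and that of spleen IGHM 11.7% and 16.1%. In lymph node these shares were 17.7% and 17.9% for IGHA, and 7.85% and 10.5% for IGHM. In skin they were 22.4% and 20.1% for IGHA, and 7.78% and 7.60% for IGHM. Weighted by copies, the difference was 23.3 ± 8.66 points in spleen and 17.9 ± 12.9 in skin, in 4 of 4 replicates each, but 5.16 ± 7.72 points for lymph node, where 3 of 4 were higher. The difference between IGHA and IGHM did not pass a test between spleen and lymph node for any J gene: for IGHJ3 the gap was 7.02 points (exact permutation p = 0.143, adjusted p = 0.571), 0 of 4 J genes were called, which is 0%, and 0 had an unadjusted p under 0.05.

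IGHG2 clonotypes, from cells switched to IgG2, also held more IGHJ3. Its share was 35.5%, 22.2%, 27.1% and 21.5% in spleen and 29.2%, 19.9%, 12.4% and 14.3% in lymph node. Against IGHM of the same replicate this was 14.9 ± 5.81 points in spleen and 11.1 ± 7.97 points for lymph node (SD, n = 4), higher in 8 of 8 replicates, and by lineage 12.1 ± 7.60 and 11.4 ± 7.88 points, also in 8 of 8. IGHJ4 was lower in IGHG2 than in IGHM in 8 of 8 replicates, by 3.64 ± 2.54 points in spleen and 12.4 ± 7.59 in lymph node. In spleen the IGHG2 differences of IGHJ1 and IGHJ2 were larger, at -5.45 ± 4.56 and -5.80 ± 4.42 points, with 4 of 4 replicates lower for each. In lymph node they were -0.796 ± 2.50 and 2.17 ± 11.9 points, with 3 of 4 replicates lower for each. In IGHA the IGHJ4 differences were -8.96 ± 4.65 points in spleen, where 4 of 4 replicates were lower, and -2.19 ± 13.9 points in lymph node, where 2 of 4 were.

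IGHD was set against IGHM of the same replicate in the same way. The IGHJ2 share was lower in IGHD by 10.7 ± 0.805 points in spleen and by 7.88 ± 0.331 points in lymph node, in 8 of 8 replicates. In skin the IGHJ2 difference was -10.96 ± 14.6 points, with 3 of 4 replicates lower and the other at 8.57 points. IGHJ1 and IGHJ3 were higher in IGHD in all 4 spleen replicates, by 3.23 ± 1.37 and 3.13 ± 2.17 points, and lower in all 4 lymph node replicates, at -1.05 ± 0.314 and -0.124 ± 0.141 points. The lymph node direction depended on the counting. By lineage it was 0.327 ± 0.552 points for IGHJ1 (3 of 4 higher) and -1.01 ± 0.198 for IGHJ3 (0 of 4 higher). Weighted by copies it was -2.44 ± 1.87 (0 of 4 higher) and 0.729 ± 1.26 (3 of 4 higher). In spleen both genes stayed higher in 4 of 4 replicates by lineage and by copies. IGHJ4 was higher in IGHD by 9.06 ± 0.465 points in lymph node and 9.25 ± 6.09 points in skin, in all 8 replicates, and by 4.32 ± 4.13 points in spleen, in 3 of 4. The spleen exception was replicate 1, whose IGHJ4 share was 30.7% in IGHM and 29.7% in IGHD. Clonotypes were counted in each isotype they had, and 1.86% to 10.4% of the IGHD clonotypes of a spleen or lymph node replicate were also found as IGHM.

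**Figure D2:**
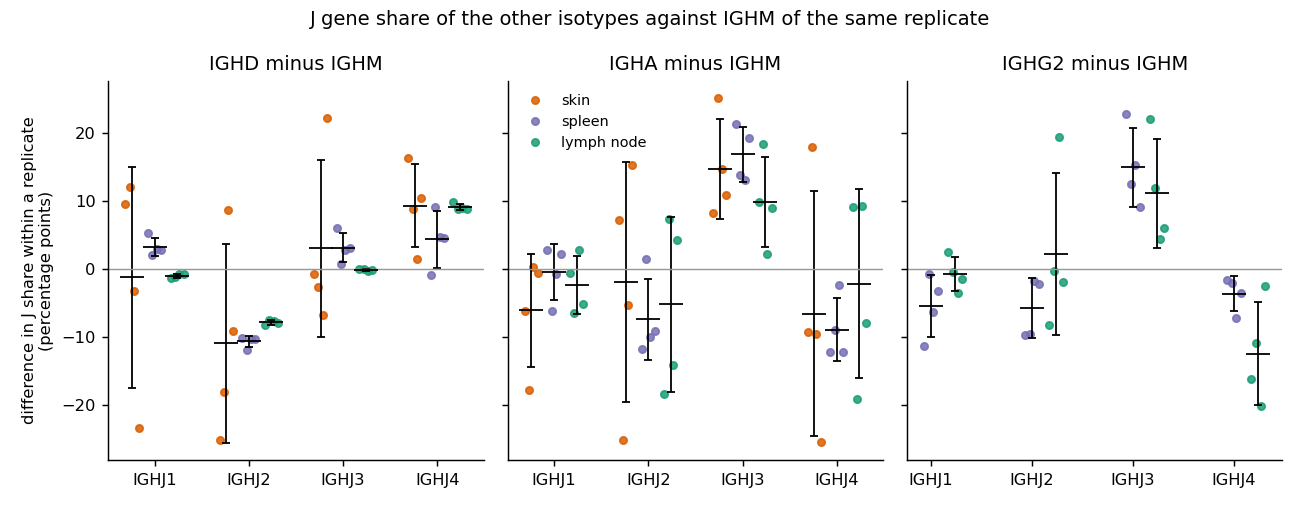
Share of each J gene in IGHD, IGHA and IGHG2 minus its share in IGHM of the same replicate (percentage points, y axis), with 1 point per replicate and black lines for the mean and SD of 4. For IGHJ3 all IGHA and IGHG2 points lie above 0, and for IGHJ2 the IGHD means lie at -10.7 points in spleen and -7.88 points in lymph node.

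In skin IGHM, IGHJ1 to IGHJ4 took 20.8% ± 4.51, 32.7% ± 8.17, 7.78% ± 1.93 and 38.7% ± 4.76 (SD, n = 4). IGHJ3 of skin IGHM was 9.79%, 6.90%, 8.90% and 5.52%, which overlapped spleen only through spleen replicate 2 at 9.73% (exact permutation p = 0.0571, adjusted p = 0.171). In IGHA 1 skin replicate had 0.00% IGHJ1 while another had 25.9%. Over 12 tests of IGHM, IGHD and IGHA, 0 passed for skin against spleen (0%) and 0 for skin against lymph node (0%), and by the exact permutation test 0 had an unadjusted p under 0.05 in either comparison. The 2 technical libraries of a replicate, taken alone, differed in an IGHM J share by 8.39 points on average in skin, by 0.390 in lymph node and by 0.335 in spleen. These are gaps between single libraries, while the tests used the 2 added together. Differences of a few points may have been missed in skin IGHM at this depth, and no detection limit was computed.

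The positive control differed from the tissue samples in J use and in the IGHJ1 sequence itself. Its IGHM clonotypes held 12.6% IGHJ1 (exact Clopper-Pearson 95% interval 12.5% to 12.8%, counting error only), 30.4% IGHJ2, 22.1% IGHJ3 (21.9% to 22.2%) and 34.9% IGHJ4. IGHJ3 was 25.6% of its IGHA, 26.1% of its IGHG2 and 10.3% of its IGHD clonotypes, and IGHJ4 was 60.7% of its IGHD clonotypes. With 1 control sample there is no test. The control IGHJ1 end is given because it carried a base that the tissue samples lacked, at A26G, counting from 1 at the 5′ end of the printed sequence (the tissue base first).
control IGHJ1: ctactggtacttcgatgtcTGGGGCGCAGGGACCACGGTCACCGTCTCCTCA

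The control base stood in 99.8% of 23631 control IGHJ1 sequences without V mismatches and in 0.00% to 0.296% of those of the tissue replicates. At 5 other A positions of framework 4, G was read in 0.109% to 0.181% of the spleen and lymph node sequences on average. IGHJ2, IGHJ3 and IGHJ4 had 0 substitutions between the control and the tissues. Mismatches in framework 4 were therefore counted against the sequence of each set.

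CDR3 length followed the J gene. Among IGHM clonotypes the mean CDR3 of IGHJ1 was 13.04 ± 0.0438 amino acids in spleen and 13.17 ± 0.0682 in lymph node, and that of IGHJ4 was 12.77 ± 0.112 and 12.96 ± 0.0405. IGHJ2 gave 10.84 ± 0.0884 and 11.16 ± 0.0622, and IGHJ3 gave 11.05 ± 0.130 and 11.40 ± 0.0434 (SD, n = 4). In all 8 spleen and lymph node replicates the order was IGHJ1, IGHJ4, IGHJ3, IGHJ2, from long to short. The neighbours in that order differed within a replicate by 0.274 ± 0.0730 amino acids (IGHJ1 over IGHJ4), 1.72 ± 0.0201 (IGHJ4 over IGHJ3) and 0.211 ± 0.0429 (IGHJ3 over IGHJ2) in spleen; 4 pairs cannot pass the exact sign-flip test, whose smallest p is 0.125. In skin IGHM, IGHJ1 was 12.5 ± 0.743 and IGHJ4 12.9 ± 0.294, and IGHJ1 was the longer in 1 of 4 replicates.

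The number of bases kept from the J segment followed the same division into 2 long and 2 short genes. In IGHM clonotypes without V mismatches, lymph node CDR3s held 15.2 ± 0.173 bases that matched the end of IGHJ1, 15.2 ± 0.144 of IGHJ4, 10.6 ± 0.0930 of IGHJ3 and 9.99 ± 0.0865 of IGHJ2. The rest of the CDR3, from the V end, the D segment and added bases, was 24.4 ± 0.368, 23.8 ± 0.202, 23.7 ± 0.165 and 23.5 ± 0.242 bases in the same order (SD, n = 4). Between IGHJ1 and IGHJ2 the J part differed by 5.16 bases and the rest by 0.895. At their start, on the side of the D segment, the printed segments lost 3.85 bases of IGHJ1, 4.01 of IGHJ2, 3.41 of IGHJ3 and 4.81 of IGHJ4 on average in lymph node. IGHJ3 kept its full start most often, in 28.8% ± 0.685 of lymph node and 28.0% ± 0.802 of spleen clonotypes, and IGHJ4 least often, in 15.4% ± 0.467 and 13.5% ± 0.697 (SD, n = 4).

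**Figure D3:**
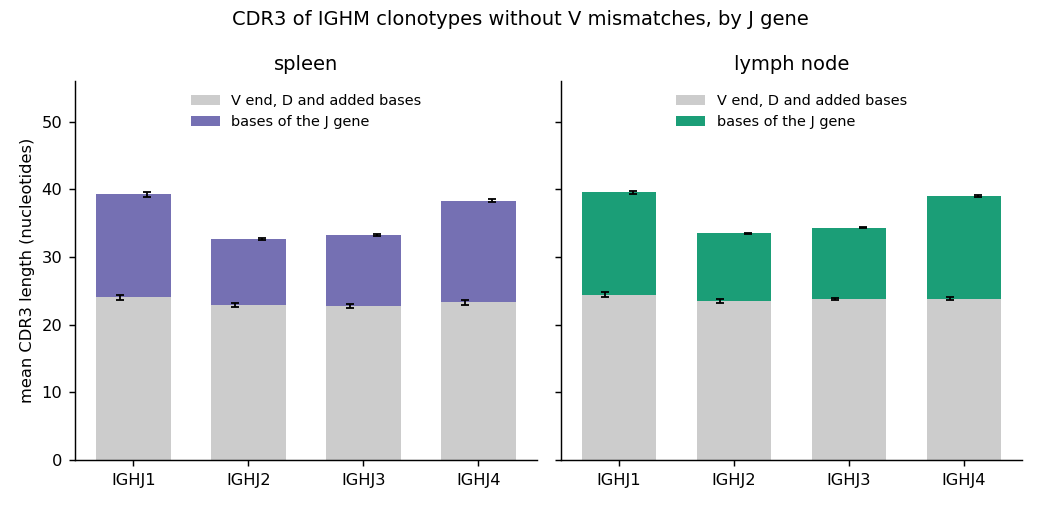
Mean CDR3 length in nucleotides (y axis) of IGHM clonotypes without V mismatches in spleen and lymph node, split into bases matching the J gene (coloured) and all other bases (grey), with the SD of each part over 4 replicates. The grey part lies between 22.8 and 24.4 bases for every gene, while the coloured part is about 5 bases taller for IGHJ1 and IGHJ4.

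Spleen CDR3s were shorter than those of lymph node for each J gene. For IGHJ3 the spleen replicates averaged 11.23, 10.92, 11.03 and 11.02 amino acids and the lymph node replicates 11.45, 11.42, 11.37 and 11.36, without overlap. The difference, spleen minus lymph node, was -0.352 for IGHJ3, -0.318 for IGHJ2 and -0.132 for IGHJ1 (exact permutation p = 0.0286, adjusted p = 0.0381 for each). IGHJ4 differed by -0.193 (exact permutation, adjusted p = 0.0571), so 3 of 4 J genes passed, which is 75%. Without any 1 lymph node replicate, or without spleen replicate 2, 0 of 4 J genes passed (exact permutation, lowest adjusted p = 0.0571), with the IGHJ3 difference between -0.366 and -0.307. Counting lineages also ended the calls (exact permutation, lowest adjusted p = 0.114), with differences of -0.233 for IGHJ3, -0.0994 for IGHJ2 and -0.00690 for IGHJ1. Skin passed for 0 of the 3 J genes with at least 10 clonotypes in every replicate, against spleen (0%) as against lymph node (0%), and 0 had an unadjusted exact permutation p under 0.05.

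J use changed along the range of CDR3 lengths. That length includes the J bases, so classes of length in part sort the long from the short J genes by themselves. Among IGHM clonotypes with a CDR3 of 9 or fewer amino acids, IGHJ2 took 58.54% ± 0.7504 in spleen and 59.2% ± 2.16 in lymph node. At 15 or more amino acids IGHJ2 took 15.4% ± 0.552 and 15.1% ± 0.638, IGHJ4 46.8% ± 1.44 and 52.5% ± 1.06, and IGHJ1 32.5% ± 0.692 and 29.0% ± 0.440 (SD, n = 4). The higher IGHJ3 share of spleen stood in all 3 length classes. It was 17.0% against 11.4% at 9 or fewer amino acids, 11.9% against 8.43% at 10 to 14, and 5.23% against 3.43% at 15 or more, and in each class the lowest spleen replicate lay above the highest of lymph node.

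The same held across classes of V mutation. With 0 V mismatches, IGHJ3 was used by 11.6% ± 1.32 of the IGHM clonotypes of spleen and by 7.94% ± 0.515 of those of lymph node. Among those with over 2% mismatched V bases it took 11.7% ± 1.48 and 8.27% ± 0.836 (SD, n = 4). IGHJ4 was lower in spleen in each of the mutation classes, at 32.5% against 38.2% with 0 mismatches. These classes describe the IGHM difference and were not tested.

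V mutation, the mismatched share of the aligned V bases, was low in IGHM for all 4 J genes. The means over 4 replicates lay between 0.565% and 0.615% in spleen and between 0.477% and 0.512% in lymph node. In skin, IGHJ2 clonotypes had 0.809%, 1.12%, 0.722% and 0.673% and IGHJ4 clonotypes 0.602%, 0.949%, 0.648% and 0.822%. The lymph node replicates ran from 0.442% to 0.566% for IGHJ2 and from 0.431% to 0.529% for IGHJ4, below every skin replicate. These 2 of the 3 J genes tested, 66.7%, passed for skin against lymph node, with differences of 0.320 and 0.264 percentage points (exact permutation p = 0.0286, adjusted p = 0.0429 for each). IGHJ1 had 0.578%, 0.515%, 1.52% and 1.21% in skin against 0.428% to 0.516% in lymph node (exact permutation, adjusted p = 0.0571).

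Those calls did not survive every change. Without any 1 lymph node replicate, or without skin replicate 4, 0 J genes passed (exact permutation, lowest adjusted p between 0.0571 and 0.129). Without clonotypes seen in a single copy, 0 passed and the IGHJ2 difference fell to 0.101 points. Skin against spleen gave 0 of 3 (0%; exact permutation, lowest adjusted p = 0.214) and spleen against lymph node 0 of 4 (0%; lowest adjusted p = 0.257), with 0 unadjusted exact permutation p-values under 0.05 in either.

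In IGHA clonotypes V mutation was several times that of IGHM, and IGHJ3 and IGHJ4 stood at the ends of the order in spleen and lymph node. In spleen IGHA, V mutation was 3.44% ± 0.278 for IGHJ3, 3.26% ± 0.175 for IGHJ2, 3.004% ± 0.338 for IGHJ1 and 2.81% ± 0.429 for IGHJ4 (SD, n = 4). IGHJ3 exceeded IGHJ4 in 4 of 4 spleen replicates, by 0.631 ± 0.267 points, while the other neighbours in the order did not differ in the same direction in all replicates. In lymph node IGHA, IGHJ4 was again lowest at 1.80% ± 0.273 and IGHJ3 highest at 2.86% ± 0.370. In spleen IGHG2 the 4 genes lay between 1.74% and 1.93%.

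Mismatches were also counted in framework 4 of the J segment. Tissue sequences without V mismatches held some as well: 96.2% to 96.6% of them had the most frequent framework 4 of their J gene. How much of the IGHM and IGHD values below is such background was not tested. Framework 4 of spleen IGHM differed from the J sequences of the tissues at 0.122%, 0.123%, 0.134% and 0.123% of bases in IGHJ1 to IGHJ4, and framework 4 of spleen IGHD at 0.113% to 0.127%. In spleen IGHA these values were 0.554% ± 0.0699, 0.826% ± 0.0836, 0.861% ± 0.327 and 0.709% ± 0.0721 (SD, n = 4). IGHJ1 was below IGHJ2 and below IGHJ4 in 4 of 4 replicates, by 0.273 ± 0.0641 and 0.155 ± 0.0222 points. IGHJ3 had the widest spread, from 0.452% in replicate 1 to 1.21% in replicate 3, and it was above IGHJ1 and IGHJ4 in 3 of 4 replicates each and above IGHJ2 in 2 of 4. In spleen IGHG2 framework 4 mismatches were 0.216% to 0.306%.

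J use differed among V families. All 10 families with at least 1% of clonotypes are given, each over all isotypes. IGHV2 used IGHJ4 most, in 51.2% ± 1.34 of its clonotypes in spleen and 58.4% ± 1.63 in lymph node, and IGHJ2 least, in 16.2% ± 1.31 and 15.5% ± 0.566. IGHV10 was next for IGHJ4, at 45.2% ± 3.80 and 47.3% ± 2.89. IGHV14 used IGHJ3 most, at 20.6% ± 2.95 and 15.04% ± 1.25, and IGHJ1 least, at 16.4% ± 1.19 and 15.6% ± 1.79 (SD, n = 4). IGHV6 followed for IGHJ3, at 17.0% and 11.1%. IGHV7 and IGHV8 used IGHJ3 least, at 9.60% and 9.64% in spleen and 5.36% and 5.51% in lymph node, and IGHJ1 most, at 26.7% and 27.5% in spleen. The remaining families, IGHV1, IGHV3, IGHV5 and IGHV9, had 19.8% to 26.0% IGHJ1, 29.2% to 35.04% IGHJ2, 10.8% to 14.5% IGHJ3 and 27.8% to 34.8% IGHJ4 in spleen.

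The tissue difference in IGHJ3 and IGHJ4 ran through the families. IGHJ3 was higher in spleen in 10 of 10 families, with a median difference of 4.18 points and no overlap in 8, and IGHJ4 was lower in 10 of 10, with a median difference of -7.00 points and no overlap in 7. In IGHV3, for example, the IGHJ3 share was 13.8% ± 4.79 in spleen against 6.26% ± 0.878 in lymph node, and in IGHV10 it was 10.04% ± 0.508 against 8.62% ± 1.48 with overlap. IGHJ1 was higher in spleen in 8 and IGHJ2 in 7 of 10 families, with medians of 1.41 and 1.06 points. Over all 40 tests 19, or 47.5%, did not overlap and had an unadjusted exact permutation p of 0.0286, but 0 passed after adjustment (0%; lowest adjusted p = 0.0602, exact permutation). Within IGHM clonotypes alone, a setting added after the data were seen, IGHJ3 was higher in 10 of 10 families (median 3.42 points) and IGHJ4 lower in 10 of 10 (median -5.98 points), also with 0 calls (exact permutation, lowest adjusted p = 0.0519).

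**Figure D4:**
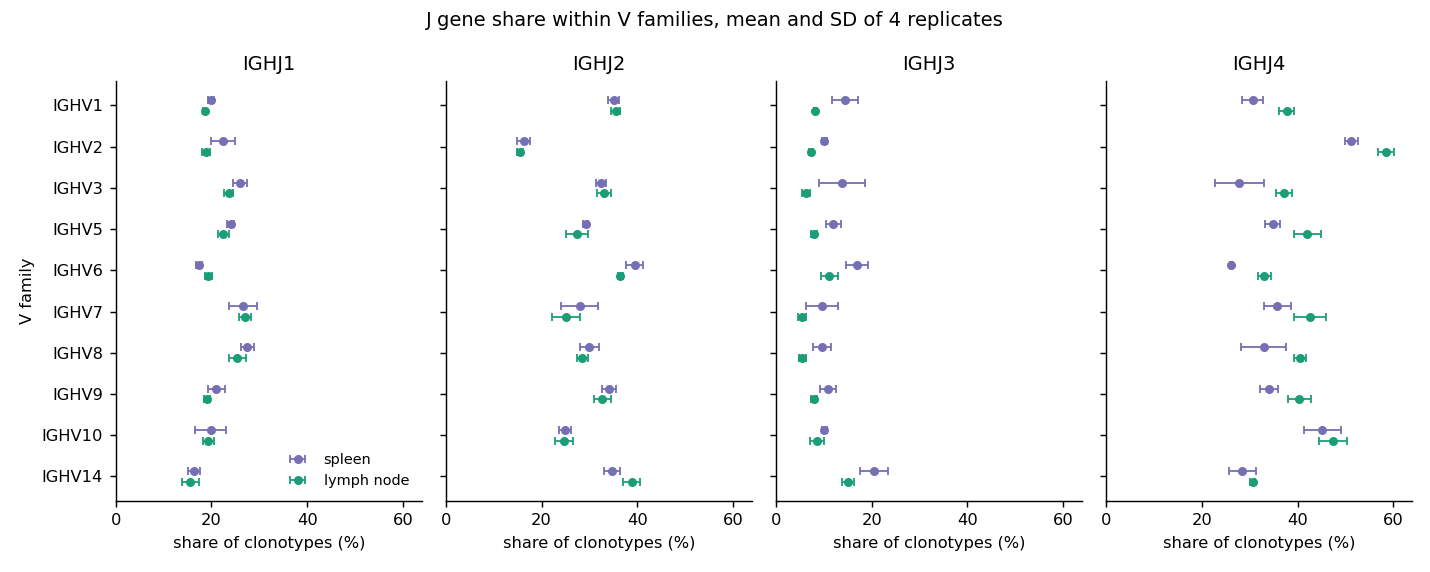
Share of the clonotypes of each V family (percent, x axis) that used each J gene, as the mean and SD of 4 spleen and 4 lymph node replicates. IGHJ3 points of spleen lie to the right of those of lymph node in all 10 families, and IGHV2 stands out in IGHJ4 at 51.2% and 58.4%.

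Pairs of 1 V gene and 1 J gene were tested as clonotype counts with edgeR's quasi-likelihood test on 303 pairs. Between spleen and lymph node 81 pairs passed an adjusted p of 0.05, which is 26.7%, with 41 higher in spleen (13.5%) and 40 lower (13.2%). Of the 64 IGHJ3 pairs, 20 were higher in spleen (31.2%) and 0 lower, and their median log2 fold change was 0.63 against -0.01 over all pairs. Of the 83 IGHJ4 pairs, 5 were higher (6.02%) and 21 lower (25.3%), with a median of -0.32. IGHJ1 had 8 higher and 8 lower of 79, and IGHJ2 8 higher and 11 lower of 77, with medians of -0.01 each.

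The count of called pairs moved with single replicates and with the scaling. Without spleen replicate 1 it was 93, without spleen replicate 2 it was 127, without spleen replicates 3 and 4 it was 51 and 46, and without lymph node replicates 1 to 4 it was 49, 47, 37 and 39. IGHJ3 pairs were called higher 14 to 28 times and lower 0 to 4 times over these fits, and IGHJ4 pairs higher 2 to 8 times and lower 8 to 30 times. DESeq2, with its own scaling, called 122 pairs, 87 higher and 35 lower, of which IGHJ3 had 38 higher and 0 lower and IGHJ4 9 higher and 17 lower. Counted by lineage 108 pairs passed, 81 higher and 27 lower, with 42 of 66 IGHJ3 pairs higher and 0 lower and 10 IGHJ4 pairs higher and 16 lower. Tested as copies per pair, 0 passed in edgeR and 36 had an unadjusted p under 0.05.

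Of the 10 pairs furthest up in spleen, 7 used IGHJ3. They joined it to IGHV14-1, IGHV14-3, IGHV1-84, IGHV5-9, IGHV1-55, IGHV1-5 and IGHV1-75. The most frequent was IGHV1-55 with IGHJ3, at 0.913% ± 0.430 of spleen clonotypes (0.582% to 1.54%) and 0.244% ± 0.0334 of lymph node clonotypes (0.201% to 0.272%; log2 fold change 1.96, SE 0.39, edgeR adjusted p = 0.00149). IGHV5-9 with IGHJ3 had the lowest SD of the 7 in spleen, at 0.132% ± 0.0176, and stood at 0.0344% ± 0.00724 in lymph node (SD, n = 4; log2 fold change 1.97, SE 0.31, edgeR adjusted p = 0.000538). The other 3 were IGHV14-1 and IGHV14-3 with IGHJ1 and IGHV14-1 with IGHJ4. Among these 10 pairs IGHV14-1 thus stood with 3 of the 4 J genes.

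The 10 pairs furthest down in spleen came from IGHV1-39, IGHV3-8, IGHV1-7, IGHV3-3 and IGHV13-2, and 0 of them used IGHJ3. IGHJ4 was in 5 of them, IGHJ2 in 3 and IGHJ1 in 2. IGHV1-39 with IGHJ4 made up 0.171% ± 0.0330 of clonotypes in spleen against 0.597% ± 0.0478 in lymph node (SD, n = 4; log2 fold change -1.79, SE 0.27, edgeR adjusted p = 0.000475), and the replicates did not overlap. The same V gene was lower with IGHJ2 (-1.55) and IGHJ1 (-1.42) too. IGHV3-8 with IGHJ4 had a log2 fold change of -1.96 and with IGHJ2 of -1.76.

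**Figure D5:**
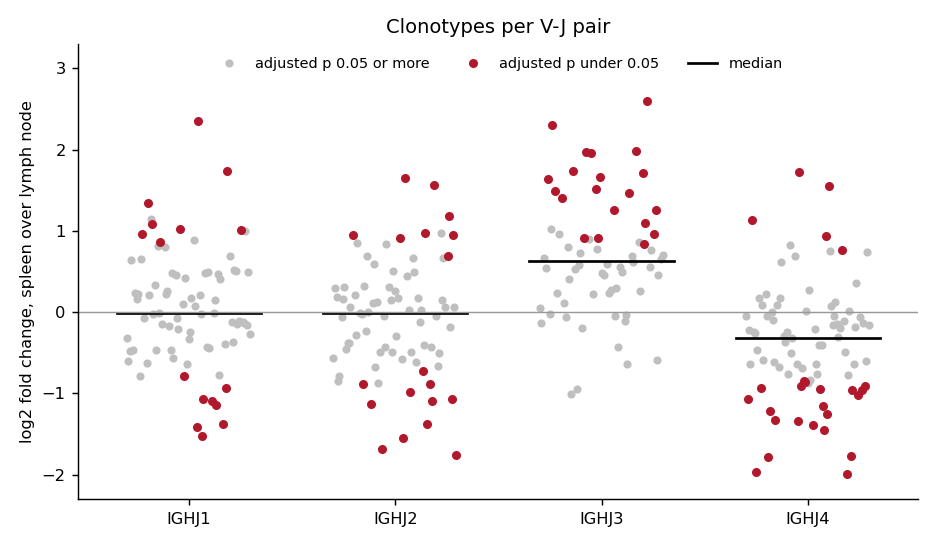
Log2 fold change of clonotypes per V-J pair, spleen over lymph node (y axis), with 1 point per pair grouped by J gene, red where the edgeR adjusted p was under 0.05, and a black line at the median. The IGHJ3 median is 0.63 and the IGHJ4 median -0.32.

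For skin the pairs gave calls whose direction depended on the scaling. With TMM scaling edgeR called 46 of 303 pairs against spleen (15.2%), 2 higher (0.66%) and 44 lower (14.5%), and 27 against lymph node (8.91%), 1 higher (0.33%) and 26 lower (8.58%). The median log2 fold changes of all pairs were -1.43 and -1.38, so most of each shift was shared by the whole table. DESeq2 called 25 against spleen, 21 higher and 4 lower, and 34 against lymph node, 31 higher and 3 lower. With library size in place of TMM, added after the data were seen, edgeR called 8 (6 higher, 2 lower) and 1 (higher), and by lineage 9 and 0, the last with 67 unadjusted p-values under 0.05. Without spleen replicate 1 the count against spleen was 95, and the count against lymph node was 51 without skin replicate 1, 54 without lymph node replicate 1 and 18 without lymph node replicate 2 or 3.

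Shares of clonotypes do not depend on that scaling and are given for the pairs named. IGHV1-7 with IGHJ3 was the pair furthest up in skin in both comparisons, at 1.33% ± 1.92 against 0.0492% ± 0.0209 for spleen and 0.0967% ± 0.0318 for lymph node (SD, n = 4; 17 skin clonotypes; edgeR adjusted p = 0.00355 and 0.0201). Its skin shares ran from 0.00% to 4.06%, and 13 of the 17 clonotypes were in skin replicate 2. Without that replicate the log2 fold change was 1.72 against spleen and 0.89 against lymph node (edgeR adjusted p = 0.213 and 0.505), and by lineage 0.89 and 0.60 (0.607 and 0.735), so neither call held. IGHV3-8 with IGHJ1 was higher in skin than in spleen, at 0.538% ± 0.438 and 0.0591% ± 0.00979 (edgeR adjusted p = 0.0257), a call that was lost by lineage (edgeR adjusted p = 0.431), without single-copy clonotypes (0.169) and without skin replicate 1 (0.174) or 3 (0.188). Among the skin pairs named here, the call of IGHV1-76 with IGHJ4 against spleen was the one that held under all alternatives run. The 5 pairs furthest down against spleen, IGHV1-76 and IGHV1-5 with IGHJ4, IGHV14-3 with IGHJ1, and IGHV1-64 and IGHV14-4 with IGHJ3, had 0 of 1267 skin clonotypes. If the skin clonotypes are taken as independent, a count of 0 allows up to 0.237% (3 clonotypes over all skin replicates). On that count IGHV1-76 with IGHJ4, at 0.777% ± 0.0619 in spleen, was at least 3.28-fold lower in skin. The other 4 were at least 1.41-fold to 1.93-fold lower. Against lymph node, IGHV1-76 and IGHV1-74 with IGHJ4, IGHV2-2 with IGHJ1 and IGHV1-64 with IGHJ3 were at 0 in skin. On that count they were at least 1.15-fold to 1.97-fold lower. Related clonotypes are not independent, and skin replicates held 156 to 205 lineages beside 275 to 350 clonotypes. A bound counted by lineage would be looser, and the pairs were picked as those furthest down. IGHV1-18 with IGHJ1 had 1 skin clonotype and 0.912% ± 0.0699 in lymph node.

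A few pairs are known from natural and hapten-specific antibodies. IGHV11-2 rearranged to IGHJ1 is a recurrent B-1a receptor that binds phosphatidylcholine, and IGHJ1 took 58.6% ± 9.01 of IGHV11-2 clonotypes in spleen, 61.2% ± 3.35 in lymph node (SD, n = 4) and 7 of 7 in skin. IGHV12-3, the other such receptor gene, used IGHJ1 in 37.4% ± 4.24 of its clonotypes in spleen, 28.8% ± 20.9 in lymph node (0.00% to 50.0%) and 2 of 2 in skin. IGHV7-1 with IGHJ1 forms the T15 antibodies against phosphorylcholine, and IGHJ1 took 38.8% ± 3.48 and 35.01% ± 2.56 of IGHV7-1 clonotypes, with 0 of 2 in skin. Every spleen and lymph node replicate of IGHV11-2 and IGHV7-1 stood above the IGHJ1 share of IGHM, which averaged 20.3% in spleen and 19.8% in lymph node, as did every spleen replicate of IGHV12-3. In lymph node replicates 1 to 4 IGHV12-3 had IGHJ1 in 0 of 1, 32 of 100, 3 of 6 and 8 of 24 clonotypes. For spleen replicates 1 to 4 the counts were 1 of 3, 241 of 703, 62 of 156 and 16 of 38. IGHV1-72 with IGHJ2, the pair of antibodies against the hapten NP, took 34.4% ± 0.672 of IGHV1-72 clonotypes in spleen and 35.4% ± 2.23 in lymph node, and 17 of 37 in skin, beside an IGHJ2 share of all IGHM clonotypes of 35.8% in spleen and 34.2% of those of lymph node.

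The T15 pair was also the most copied IGHJ1 junction of spleen. Junctions are shown for that clonotype and for the most copied IGHJ3 clonotype of each tissue, with capitals for the bases that match the end of the J gene. IGHJ3 was taken because its share of clonotypes was higher in IGHA than in IGHM in every tissue replicate, a difference without a call.
IGHV7-1 with IGHJ1, spleen: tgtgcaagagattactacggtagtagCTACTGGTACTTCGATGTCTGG
IGHV1-7 with IGHJ3, skin: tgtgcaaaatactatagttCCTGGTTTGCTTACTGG
IGHV1-26 with IGHJ3, spleen: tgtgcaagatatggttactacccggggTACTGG
IGHV1-26 with IGHJ3, lymph node: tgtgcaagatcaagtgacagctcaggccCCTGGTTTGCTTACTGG

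The IGHV7-1 junction kept all 22 bases of IGHJ1, had a mean V mismatch of 0.000358% and was found in 4 of 4 spleen replicates with 18240 copies, 14742 of them in replicate 2 and 94.9% of them IGHM. Nearly all copies of each IGHJ3 junction came from 1 replicate. That of skin, in 1 replicate with 1783 copies, was IGHA in 100% of copies, carried 4.87% V mismatches and held 40.2% of all IGHJ3 copies of skin. That of spleen had 11317 copies, 11316 of them in replicate 2, 99.7% of them IGHA, with 5.18% V mismatches and 6 matching J bases. That of lymph node had 2746 copies, 2744 of them in replicate 1, all IGHG2, with 0 V mismatches and 17 matching J bases.

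The V genes whose share of clonotypes moved most like that of a J gene over the 12 tissue replicates are given as a description, out of 80 V genes compared. For IGHJ3 they were IGHV14-3 (Pearson r = 0.747) and IGHV14-2 (r = 0.609), and over the 8 spleen and lymph node replicates r was 0.975 and 0.902. For IGHJ4 they were IGHV10-1 (0.665, and 0.819 without skin) and IGHV1-19 (0.609, and 0.966 without skin). For IGHJ1 they were IGHV8-5 (0.84995 and 0.8687) and IGHV2-9-1 (0.774 and -0.590), and for IGHJ2 IGHV5-17 (0.719 and 0.575) and IGHV5-9-1 (0.677 and 0.162). The points share library depth and tissue, the shares of a replicate sum to the whole, and the IGHV2-9-1 value changed sign without skin.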

How the data were processed

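Heavy-chain transcripts were sequenced from bulk RNA with constant-region primers carrying a 10-nucleotide molecular identifier and V gene primers, per the labels' protocols, in paired reads of 300 bases. Each line of the deposited tables holds 1 sequence, the V, J and constant gene assigned to it, the junction and a count in whole numbers (copies). The file headers do not say whether identifiers or reads were counted. The deposited V mismatches and aligned V length are another measurement and gave V mutation. No aligner is named in the sources used here, and the build was mm10 per the submitters' processing notes. The titles gave the tissue, since the tissue field of all tissue samples says ear skin.

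The 2 technical tables of a replicate were added. J shares, CDR3 length and V mutation were computed per clonotype, V-J pairs as clonotype counts. For single values the test was an exact permutation test, two-sided, with Benjamini-Hochberg adjustment, over isotypes with at least 20 and J genes with at least 10 clonotypes in every replicate. V-J pairs were tested with edgeR 4.0.16 (R 4.3.3; TMM factors 0.692 to 1.85, filterByExpr, 12 tissue samples), with DESeq2 1.42.0 as an alternative. Other values came from scipy 1.17.1, numpy 2.4.6 and pandas 2.3.3 in Python 3.11.15. In simulated tables with 40 pairs changed 4-fold, edgeR found 97.5% of them for spleen against lymph node (296 pairs, 2 false calls), 27.5% for skin against spleen (294 pairs, 4 false) and 20.0% for skin against lymph node (294 pairs, 5 false).

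The alternatives left out clonotypes of a single copy, counted lineages or copies, used 1 technical table, other adjustments, filters and scalings, a replicate block, and left out each replicate. Same-numbered replicates of different tissues had deviations correlated at -0.122 to 0.149 over 248 V-J pairs, so the numbers were not taken as pairs. Named were all J genes, all families of at least 1%, up to 10 V-J pairs per direction for spleen against lymph node and 5 for skin by size of the log2 fold change at an adjusted p under 0.05, 4 known pairs, the 2 most alike V genes per J gene, and the most copied junction per J gene and tissue found in both technical tables. Of those junctions 4 were printed, chosen after their values were seen. The members and lists were chosen with earlier results of these data known. The labels give no batch.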

Additional observations from a re-analysis of the deposited data

Results flagged for a closer look

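Among 66 groups of 4 replicates checked, 5 had 1 replicate set apart from the other 3 by a gap above Dixon's 95% critical value, and chance gives about 1 in 20 groups. In skin IGHM, replicate 2 had an IGHJ4 share of 31.6%, while the others had 40.7% to 41.4%. In spleen IGHD, replicate 1 had an IGHJ1 share of 25.8% against 22.5% to 22.9%, and replicate 2 an IGHJ2 share of 23.5% against 25.5% to 25.8%. In lymph node IGHM, the mean CDR3 of IGHJ2 clonotypes was 11.25 amino acids in replicate 1 against 11.12 to 11.13 in the others. In lymph node IGHM, V mutation of IGHJ3 clonotypes was 0.414% in replicate 4 against 0.532% to 0.553%. Spleen replicate 1 had the fewest and spleen replicate 2 the most clonotypes of spleen, and lymph node replicate 1 the fewest of lymph node; the part of library size was not tested.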

How the results depend on the processing

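None of the J share, CDR3 length and V mutation differences that passed, and none of the V-J pairs named, changed sign under the alternatives run, whereas the calls over all skin pairs were mostly lower with TMM and mostly higher in DESeq2, and several counts of calls did not hold. J shares, spleen against lymph node: 3 calls became 6 with the first technical table alone and 0 with adjustment over all 16 tests, and ranged from 0 to 3 with 1 replicate left out. The 6 were 3 of IGHD and 3 of IGHM, and the 3 left without single-copy clonotypes, or without lymph node replicate 2, were all of IGHM. CDR3 length, spleen against lymph node: 3 calls became 0 by lineage, 0 with the first technical table and 0 over all isotypes, and ranged from 0 to 4 with 1 replicate left out. V mutation: skin against lymph node went from 2 calls to 0 without single-copy clonotypes, 0 with the first technical table and 4 over all isotypes (0 to 3 with 1 replicate left out), skin against spleen from 0 to 2 by lineage, and spleen against lymph node from 0 to 4 over all isotypes.

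V-J pairs in edgeR: against spleen, skin's 46 calls became 24 without single-copy clonotypes, 9 by lineage, 115 by copies, 70 without the filter on low counts, 8 with library size and 25 in DESeq2 (41 to 95 with 1 replicate left out). Against lymph node, skin's 27 became 0 by lineage, 111 by copies, 60 without the filter, 1 with library size and 16 with only the compared groups fitted (18 to 54 with 1 replicate left out). Spleen against lymph node went from 81 to 0 by copies, 122 in DESeq2 and 122 with only the compared groups fitted (37 to 127 with 1 replicate left out).

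The labels give the tissues the same replicate numbers, which the check above did not show to pair samples. With the replicate number as a block, calls were 0 for J shares, CDR3 length and V mutation in every comparison, where 4 pairs cannot go below an exact sign-flip p of 0.125 and so cannot pass. The V-J pairs gave 37, 11 and 67 calls with the block, for skin against spleen, skin against lymph node and spleen against lymph node. The cause of these changes was not tested. Depth limits skin, where 47 to 66 IGHD clonotypes per replicate stood behind each share.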
